A study of Mus musculus with 5 samples.

Results

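The genes described here are 7 members of the cholesterol synthesis pathway and its feedback control, Hmgcs1, Fdft1, Sqle, Lss, Sc5d, Dhcr7 and Insig1, measured in mouse forelimb buds at E11.5. Every probe set whose platform annotation gave one of these symbols, and no other, was taken, which gave 18 of the 45037 probe sets tested and 7 of the 18193 genes named. The arrays came from 2 forelimb samples of double mutant embryos (Sost-/-; Sostdc1-/-) and 3 of wild-type embryos, all of the C57Bl/6 background strain, from embryos that were not pooled. No single mutant was analysed here, so the share of each deleted gene in a difference cannot be told apart. Each group held biological replicates, per the series' design text.

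Cells make cholesterol from acetyl-CoA through mevalonate, the isoprenoid farnesyl diphosphate, squalene and lanosterol. When sterols run low, the membrane-bound transcription factors of the SREBP family are escorted to the Golgi by SCAP, cut by site proteases and released to switch on nearly every gene of the pathway, while INSIG proteins hold SCAP back when sterols are plentiful. In the limb bud the pathway matters for Hedgehog signalling, because the Hedgehog ligand carries a covalently attached cholesterol and the transducer Smoothened binds sterols; loss of DHCR7 in people causes Smith-Lemli-Opitz syndrome, in which digits are often malformed.

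In the double mutant limb buds the 7 genes gave differences of both signs. Read on the brightest probe set of each gene, Dhcr7 fell, and the other 6 genes did not pass the test. Of the 7 differences 4 were below 0 and 3 above, with a median of -0.06 on the log2 scale (range -0.48 to 0.32), against a median of -0.02 over all genes. The largest differences lay on secondary probe sets, where Sc5d fell on 1424709_at and rose on 1434520_at, and Hmgcs1 rose on the dim probe set 1441536_at. Among all 18 probe sets 2 were called higher and 3 lower at a Benjamini-Hochberg adjusted p under 0.05 in limma, which is 11.1% and 16.7% of them, against 8.7% and 9.52% of all probe sets tested (18.2% in either direction). The groups did not overlap on 13 of the 18 (72.2%, with 7 higher and 6 lower), against 45.2% of all probe sets.

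**Figure D1:**
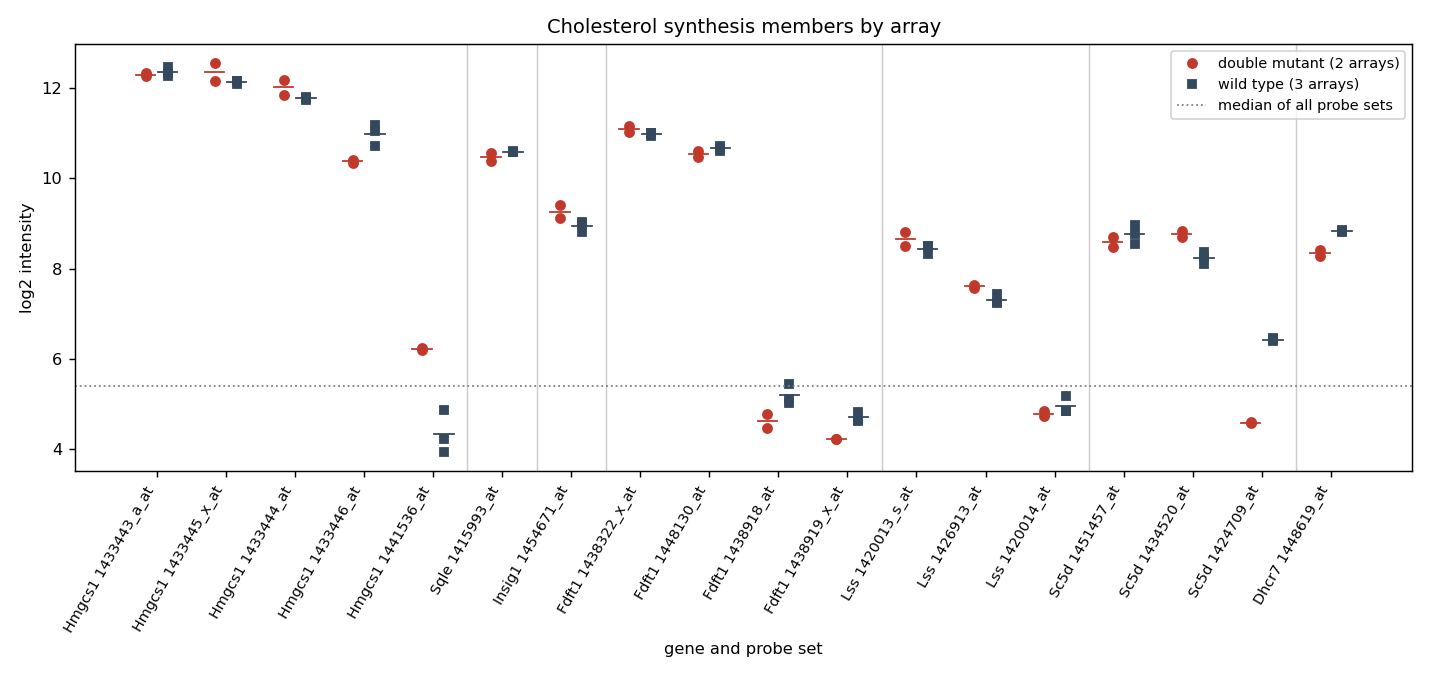
Log2 intensity (y axis) of each of the 18 probe sets of the 7 genes (x axis) in every array, with 2 double mutant arrays as circles, 3 wild type arrays as squares, a short line at each group mean and a dotted line at 5.41, the median of all probe sets. The groups do not overlap on 13 of the 18. The widest gaps are those of Sc5d 1424709_at, near 4.6 in the double mutants and near 6.4 in the wild type arrays, and of Hmgcs1 1441536_at. The latter lies near 6.2 in the double mutants and at 3.95 to 4.87 in the wild type arrays.

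Promoter sequence is shown for the member with a match to the sterol regulatory element, the site SREBP proteins bind, and for the members called on probe sets at or above the median level. RefSeq promoter windows on GRCm38.p6 were held for 5 of the 7 genes (not for Sqle and Fdft1), and the 250 bases before each start were searched on both strands for a sterol regulatory element (TCACNCCAC), a CCAAT box (CCAAT), which NF-Y binds, and a GC box (GGGCGG), which Sp1 binds. The motifs were not found to overlap in the sequences below, where capitals mark every match and each line runs 5′ to 3′ on the gene's strand. Hmgcs1 lies at chr13:119690101-119690350 (+), Sc5d at chr9:42264301-42264550 (-), and Dhcr7 has 3 windows, of which the most upstream, chr7:143822917-143823166 (+), and the most downstream, chr7:143829964-143830213 (+), are printed.
Hmgcs1: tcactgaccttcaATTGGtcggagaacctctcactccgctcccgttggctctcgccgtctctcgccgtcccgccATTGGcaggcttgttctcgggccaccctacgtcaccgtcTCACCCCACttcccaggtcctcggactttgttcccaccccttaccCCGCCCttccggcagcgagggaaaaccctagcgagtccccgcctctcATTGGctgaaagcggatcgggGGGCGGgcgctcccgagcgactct
Sc5d: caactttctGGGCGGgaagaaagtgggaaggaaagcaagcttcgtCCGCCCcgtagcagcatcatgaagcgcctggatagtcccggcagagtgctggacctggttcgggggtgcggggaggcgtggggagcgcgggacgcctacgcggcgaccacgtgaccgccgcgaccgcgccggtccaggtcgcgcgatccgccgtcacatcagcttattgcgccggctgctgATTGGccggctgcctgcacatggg
Dhcr7 upstream start: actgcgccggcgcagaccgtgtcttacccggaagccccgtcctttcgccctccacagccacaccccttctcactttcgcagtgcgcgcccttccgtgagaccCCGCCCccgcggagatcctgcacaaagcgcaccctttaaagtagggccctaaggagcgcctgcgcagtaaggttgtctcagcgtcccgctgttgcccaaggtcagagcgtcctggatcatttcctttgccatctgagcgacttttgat
Dhcr7 downstream start: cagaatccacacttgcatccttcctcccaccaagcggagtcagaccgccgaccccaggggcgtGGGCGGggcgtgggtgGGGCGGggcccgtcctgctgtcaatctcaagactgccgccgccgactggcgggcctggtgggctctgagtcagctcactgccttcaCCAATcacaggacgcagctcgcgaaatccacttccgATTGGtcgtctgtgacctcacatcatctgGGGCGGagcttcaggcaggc
Of the 5 genes 1, Hmgcs1, held the sterol regulatory element in this form, which starts 137 bases before its start site and was found in 1.05% of 32851 mouse promoter windows of that length. Hmgcs1 also held 3 CCAAT boxes and 2 GC boxes, and Sc5d 1 and 2. Insig1 held 1 and 3, and Lss 1 and 2. The upstream Dhcr7 window held 0 CCAAT boxes and 1 GC box, and the downstream one 2 and 3. CCAAT boxes occurred in 33.8% and GC boxes in 32.7% of all windows. A match is a run of letters, and no binding was measured.

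A few facts of the whole experiment bear on every value below. Array medians lay between 39.4 and 44.4 on the linear scale. The targeted genes were lower on one probe set each: Sost 1450179_at had 4.16 and 4.43 log2 in the double mutant arrays and 6.75, 6.19 and 6.47 in the wild type arrays, and Sostdc1 1460250_at had 6.28 and 7.35 in the double mutant arrays and 9.42, 8.94 and 9.15 in the wild type arrays. Their other probe sets were not called (adjusted p = 0.237 and 0.775). All 9 markers of limb bud mesenchyme were measured, with mean levels at or above 6.01 log2 and 0 called on the brightest probe set. Limma put 1 of the 9 at an unadjusted p under 0.05, against 14510 of all 45037 probe sets. Among 13 other probe sets of these markers 4 were called lower, 2 of Prrx1 and 2 of Hand2, and 0 higher, against 9.52% and 8.7% of all probe sets. The poly-A spike-ins Dap, Lys, Phe and Thr, which come from no mouse gene, stood at 4.59 to 7.28 log2 in the double mutant arrays and at 3.23 to 3.58 in the wild type arrays, and for Gapdh the 3' minus the 5' manufacturer probe sets gave 0.21 ± 0.08 (SD, n = 2) in the double mutant arrays and -0.10 ± 0.04 (SD, n = 3) in the wild type arrays (two-sided exact permutation p = 0.1, the smallest that 10 splits allow). The Trpn control stood at 3.06 and 3.14 in the double mutant arrays and at 3.05 to 3.10 in the wild type arrays (exact permutation p = 0.6), and the Actb 3' minus 5' value, 0.60 ± 0.07 (SD, n = 2) in the double mutant arrays and 0.37 ± 0.27 (SD, n = 3) in the wild type arrays, overlapped (exact permutation p = 0.4). Preparation and genotype cannot be told apart. Xist (1436936_s_at) was high in both double mutant arrays (12.37 and 11.75) and in wild type replicate 1 (12.28), and low in wild type replicates 2 and 3 (5.73 and 5.70), while the Y-linked Eif2s3y (1417210_at) was high in both double mutant arrays (8.36 each) and in wild type replicates 2 and 3 (8.49 and 8.42), and low in wild type replicate 1 (3.20). Both double mutant arrays thus carried Xist and Y-linked transcripts together, although the labels describe unpooled embryos.

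Some markers of other cell types were called too, beside 14.7% of all genes (6.56% higher and 8.14% lower). Of 10 surface ectoderm markers 6 were called higher and 0 lower, with a summed linear intensity of 6136 to 6291 in the double mutant arrays and 4028 to 4513 in the wild type arrays. The difference was below 0 for 1 of the 10. Among 9 other probe sets of these markers 2 were called higher and 1 lower, against 8.7% and 9.52% of all probe sets. Of 7 endothelial markers 4 were lower (sums of 1347 to 1386 in the double mutant and 1866 to 1981 in the wild type arrays), as were 2 of 7 erythroid (44398 to 49686 in double mutant and 50394 to 53876 in wild type) and 1 of 6 muscle progenitor markers (1195 to 1360 in double mutant and 1528 to 1682 in wild type). Differences were above 0 for 0 of the endothelial, 1 of the erythroid and 2 of the muscle progenitor markers. Of 6 other muscle progenitor probe sets 2 were called lower and 0 higher. Macrophage markers (0 of 7 called) had sums of 699 to 898 in double mutant and 1023 to 1101 in wild type arrays. Neural markers (0 of 5 called) had sums of 789 to 978 in double mutant and 769 to 919 in wild type arrays. Limma put 3 macrophage and 0 neural markers at an unadjusted p under 0.05, against 14510 of all 45037 probe sets. Fewer cells of a type and less RNA per cell cannot be told apart in such bulk tissue, and the part of these cells in the sterol gene values was not tested.

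Hmgcs1 encodes the cytosolic HMG-CoA synthase, which joins acetoacetyl-CoA and acetyl-CoA at the head of the pathway. Its brightest probe set, 1433443_a_at, stood at 12.33 and 12.25 log2 in the double mutant arrays and at 12.45, 12.34 and 12.27 in the wild type arrays. The groups overlapped, and the difference was -0.06 ± 0.07 (SE, adjusted p = 0.603). Of its 5 probe sets, 4 were designed on the same transcript record, and their differences had both signs. On 1433444_at the double mutants had 11.85 and 12.18 and the wild type arrays 11.79, 11.74 and 11.79, a difference of 0.24 ± 0.11 (adjusted p = 0.235). The x_at probe set, 1433445_x_at, whose probes can also bind other transcripts, gave 0.22 ± 0.13 (adjusted p = 0.325).

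On the other hand, 1433446_at stood at 10.34 and 10.41 in the double mutant arrays and at 11.18, 11.04 and 10.72 in the wild type arrays, with no overlap and a difference of -0.60 ± 0.15 (adjusted p = 0.069). That probe set crossed the threshold with equal array medians (-0.69, adjusted p = 0.0179), with dim probe sets left out (adjusted p = 0.0409) and without wild type replicate 3 (-0.73, adjusted p = 0.029). So 2 probe sets designed on one record of the same gene gave differences of opposite sign, neither called in the fit over all arrays.

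The fifth Hmgcs1 probe set, 1441536_at, designed on another record, rose. It had 6.24 and 6.21 log2 in the double mutant arrays and 4.87, 4.23 and 3.95 in the wild type arrays, a difference of 1.87 ± 0.30 (SE, adjusted p = 0.0246), or 3.66-fold on the log2 fit. Every double mutant array was above every wild type array, and the wild type values lay under the median of all probe sets, 5.41, so the size of the rise is uncertain. Its call was lost without double mutant replicate 1 (adjusted p = 0.128) or 2 (0.118) and without wild type replicate 2 (0.121) or 3 (0.0562), while the difference stayed between 1.67 and 2.13.

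Fdft1 encodes squalene synthase, which commits farnesyl diphosphate to sterols. Its brightest probe set, 1438322_x_at, and the dim 1438919_x_at are x_at probe sets, whose probes can also bind other transcripts. The brightest had 11.15 and 11.02 log2 in the double mutant arrays and 11.01, 11.01 and 10.93 in the wild type arrays. The difference was 0.10 ± 0.06 (SE, adjusted p = 0.36). The double mutants lay above the wild type by a small margin. On 1448130_at the sign was the other way, at 10.61 and 10.48 in the double mutant arrays and 10.61, 10.71 and 10.66 in the wild type arrays (-0.12 ± 0.07, adjusted p = 0.317). The remaining pair of Fdft1 probe sets was dim. On 1438919_x_at the signal fell, with 4.22 and 4.23 in the double mutant arrays and 4.65, 4.84 and 4.63 in the wild type arrays (-0.48 ± 0.08, adjusted p = 0.0283), a call that no fit with an array left out kept (adjusted p of 0.0619 to 0.121). On 1438918_at it was -0.56 ± 0.17 (adjusted p = 0.0988), called with equal array medians (adjusted p = 0.0434) and with quantile normalization (0.0476).

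Sqle encodes squalene epoxidase, the first oxygen-requiring and a rate-limiting step after squalene. Its 1 probe set, 1415993_at, stood at 10.55 and 10.38 log2 in the double mutant arrays and at 10.58, 10.58 and 10.60 in the wild type arrays. Both double mutant arrays were below all wild type arrays, by little, and the difference of -0.12 ± 0.07 (SE) did not pass the test (adjusted p = 0.314).

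Lss encodes lanosterol synthase, which closes the sterol rings. Its brightest probe set, 1420013_s_at, had 8.50 and 8.80 log2 in the double mutant arrays and 8.50, 8.50 and 8.32 in the wild type arrays, with the same value in 3 arrays and a difference of 0.21 ± 0.12 (SE, adjusted p = 0.32). A second, 1426913_at, separated the groups, at 7.64 and 7.58 in the double mutant arrays and 7.24, 7.27 and 7.44 in the wild type arrays (0.29 ± 0.08, adjusted p = 0.0807), and passed the threshold without wild type replicate 3 (0.36, adjusted p = 0.045). The dim 1420014_at gave -0.16 ± 0.13 (adjusted p = 0.455). Identical values in 2 or more arrays occurred on 5 of the 18 probe sets, in Hmgcs1, Fdft1 and Lss.

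Sc5d encodes the desaturase that makes 7-dehydrocholesterol, the substrate of DHCR7, from lathosterol. Its probe sets were called in both directions. The probe set with the smallest p of all 18, 1424709_at, had 4.59 and 4.60 log2 in the double mutant arrays and 6.44, 6.46 and 6.39 in the wild type arrays. The groups were far apart and tight within themselves, and the difference was -1.84 ± 0.05 (SE, adjusted p = 0.0048), a fold of 3.57 in favour of wild type, with the double mutant values under the median of all probe sets.

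By contrast 1434520_at rose, with 8.83 and 8.69 in the double mutant arrays and 8.09, 8.25 and 8.37 in the wild type arrays (0.53 ± 0.10, adjusted p = 0.039). The brightest Sc5d probe set, 1451457_at, had 8.48 and 8.71 in the double mutant arrays and 8.97, 8.77 and 8.53 in the wild type arrays, overlapping, at -0.16 ± 0.16 (adjusted p = 0.525). It shares its transcript record with 1424709_at, and 1434520_at was designed on another. Which transcript end or isoform each probe set reads was not known here. The fall on 1424709_at lost its call without double mutant replicate 1 (adjusted p = 0.0511) or wild type replicate 2 (0.0584), and the rise on 1434520_at with any array left out (adjusted p of 0.0566 to 0.162) or with equal array medians (0.44, adjusted p = 0.0621).

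Dhcr7 encodes 7-dehydrocholesterol reductase, which makes cholesterol in the last step of one branch. Its 1 probe set, 1448619_at, had 8.28 and 8.42 log2 in the double mutant arrays and 8.83, 8.84 and 8.81 in the wild type arrays. Both double mutant arrays lay below the wild type arrays, which differed among themselves by 0.03, and the signal fell by 0.48 ± 0.06 (SE, adjusted p = 0.0148), to 0.717 of the wild type level. Of the 7 genes 1 was thus called by its brightest probe set (14.3%), against 14.7% of all genes (6.56% higher and 8.14% lower), and 0 were called higher. At an unadjusted p under 0.05 limma gave 1 gene lower and 0 higher, against 14510 of all 45037 probe sets in either direction. On the brightest probe sets the groups did not overlap for 4 of the 7 genes, against 43.2% of all genes. The Dhcr7 call was lost without double mutant replicate 1 (-0.41, adjusted p = 0.0511), wild type replicate 1 (-0.48, adjusted p = 0.06) or wild type replicate 2 (-0.47, adjusted p = 0.082), and, as every call in the table, with the Gapdh 3' minus 5' value as a covariate (-0.20, adjusted p = 0.784).

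Insig1 encodes an endoplasmic reticulum protein that retains SCAP and is itself a target of SREBP, so that its RNA is widely used as a gauge of SREBP activity. Its 1 probe set, 1454671_at, stood at 9.11 and 9.41 log2 in the double mutant arrays and at 8.98, 8.80 and 9.03 in the wild type arrays. Both double mutant arrays were higher than every wild type array, but they differed between themselves by more than the gap to wild type replicate 3, and the difference of 0.32 ± 0.13 (SE) was not called (adjusted p = 0.175). With 1 array left out it ranged over 0.17 to 0.47.

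**Figure D2:**
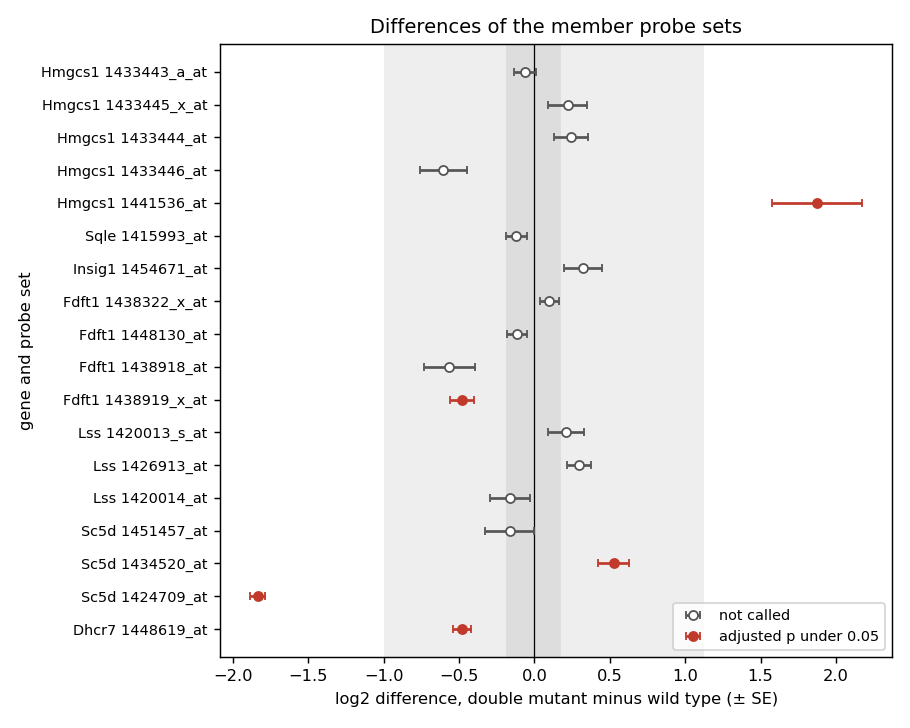
Log2 difference, double mutant minus wild type, with limma's SE (x axis) for each probe set of the 7 genes (y axis); filled red points passed an adjusted p under 0.05, and the darker and lighter bands span the 25th to 75th and the 5th to 95th percentiles of all probe sets. The 3 Sc5d points lie at -0.16, 0.53 and -1.84, and Dhcr7 lies at -0.48.

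Beyond the 7 genes, 13 other enzymes on the synthesis list were measured. Among them is Ggps1, whose product, geranylgeranyl diphosphate, leads to the isoprenoid branches rather than to sterols. Of these 13, 1 rose, 2 fell and 10 were not called. Limma put 6 of the 13, the called genes included, at an unadjusted p under 0.05, against 14510 of all 45037 probe sets. The share called was 23.1%, against 14.7% of all genes, and the median difference was -0.07, against -0.02 over all genes. Mvk, the mevalonate kinase gene, fell. It had 7.46 and 7.55 log2 in the double mutant arrays and 8.07, 8.21 and 8.19 in the wild type arrays (-0.65 ± 0.07, SE, adjusted p = 0.0112), and its second probe set, 1430619_a_at, fell too (-1.25 ± 0.09, adjusted p = 0.0069). Nsdhl, a sterol dehydrogenase gene that acts in the removal of the C4 methyl groups, had 9.09 and 9.40 in the double mutant arrays and 9.90, 9.79 and 9.88 in the wild type arrays (-0.62 ± 0.11, adjusted p = 0.0319).

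Lbr, the lamin B receptor gene, whose protein also reduces sterols at carbon 14, rose, with 11.70 and 11.90 in the double mutant arrays and 11.32, 11.36 and 11.34 in the wild type arrays (0.46 ± 0.08, adjusted p = 0.0267). Of the rest, Fdps, the farnesyl diphosphate synthase gene, had 10.56 and 11.03 in the double mutant arrays and 11.64, 11.40 and 11.24 in the wild type arrays (-0.63 ± 0.20, adjusted p = 0.11), with no overlap but a wide spread. Hsd17b7 differed by -0.63 ± 0.15 (adjusted p = 0.0568), Idi1 by 0.15 ± 0.09 (adjusted p = 0.325) and Cyp51, the lanosterol demethylase gene, by 0.01 ± 0.09 (adjusted p = 0.961).

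Calls on the 13 other probe sets of these enzymes were 0 higher and 3 lower, against 8.7% and 9.52% of all probe sets. The lower ones were 1 each of Mvk, Ggps1 and Hsd17b7. With equal array medians, which shift every difference by -0.09, Lbr was no longer called (adjusted p = 0.0789), while Mvk, Nsdhl, Fdps and Hsd17b7 were lower (adjusted p of 0.0066 to 0.0435). Without double mutant replicate 1 or wild type replicate 2, limma called 0 probe sets of the 45037 (14059 and 11115 at an unadjusted p under 0.05). Nsdhl and Lbr were also lost without wild type replicate 1 (adjusted p = 0.11 and 0.0921) or 3 (0.101 and 0.0817).

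**Figure D3:**
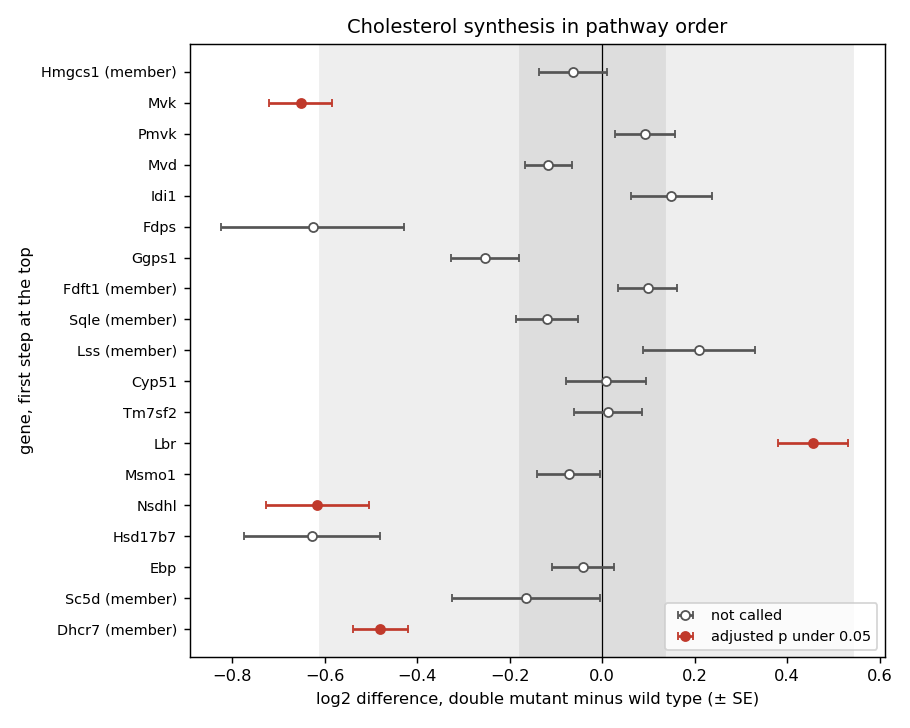
Log2 difference, double mutant minus wild type, with limma's SE (x axis) for the 19 measured genes of the synthesis list (y axis), each on its brightest probe set. Genes are in pathway order, with the branch gene Ggps1 placed after Fdps. Filled red points passed an adjusted p under 0.05, and the bands span the 25th to 75th and the 5th to 95th percentiles of all genes. The called genes are Mvk (-0.65), Lbr (0.46), Nsdhl (-0.62) and Dhcr7 (-0.48). The other 15, with Fdps (-0.63) among them, were not called.

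The control machinery was next compared. Of 13 measured genes that control SREBP, the member Insig1 included, 2 rose, 1 fell and 10 were not called, with a median of 0.08. The share called was 23.1%, against 14.7% of all genes. Among the 12 remaining probe sets of these genes 0 were called higher and 1 lower, against 8.7% and 9.52% of all probe sets. It was 1422082_a_at of the NF-Y subunit gene Nfya (-2.61 ± 0.29, SE, adjusted p = 0.012), which was not called on its brightest probe set (-0.25 ± 0.14, adjusted p = 0.31). Srebf2, which encodes the SREBP that drives sterol genes, fell on its brightest probe set, 1452174_at, with 8.53 and 8.36 log2 in the double mutant arrays and 9.50, 9.39 and 9.66 in the wild type arrays (-1.07 ± 0.11, SE, adjusted p = 0.0105). Its other probe set, 1426744_at had 8.80 and 8.94 in the double mutant arrays and 8.93, 8.93 and 8.99 in the wild type arrays (-0.08 ± 0.06, adjusted p = 0.425). One Srebf2 probe set was therefore lower and the other was not called.

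Mbtps2, the gene of the site-2 protease that frees SREBP from the membrane, rose, with 9.78 and 9.90 in the double mutant arrays and 9.19, 9.29 and 9.43 in the wild type arrays (0.54 ± 0.09, adjusted p = 0.0296). Nfyb, a subunit of NF-Y, rose by 0.31 ± 0.06 (adjusted p = 0.0312), and its second probe set differed by -0.10 (adjusted p = 0.592). Srebf1 (0.30 ± 0.07, adjusted p = 0.062), Insig2 (0.20 ± 0.06, adjusted p = 0.0847) and Scap (0.14 ± 0.09, adjusted p = 0.358) were not called. The Srebf2 call held without wild type replicate 3 (adjusted p = 0.0256) and was lost with any other array left out (adjusted p of 0.052 to 0.0603), and that of Mbtps2 likewise (0.0413, and 0.0762 to 0.129). Nfyb lost its call with any array left out (adjusted p of 0.063 to 0.105), and both rises were lost with equal array medians (adjusted p = 0.0627 for Mbtps2 and 0.187 for Nfyb).

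Genes that handle sterols or draw on the same precursors were counted in the same way, beside 14.7% of all genes and 18.2% of all probe sets called. For uptake, transport and export limma called 0 of 14 measured genes, with a median of -0.03. An unadjusted p under 0.05 was reached by 5 of the 14, against 14510 of all 45037 probe sets. Of the list's 13 remaining probe sets 3 were lower and 0 higher. Abca1, the sterol exporter gene, fell on 1421839_at, with 4.19 and 4.10 log2 in the double mutant arrays and 7.14, 7.23 and 6.45 in the wild type arrays (-2.79 ± 0.27, SE, adjusted p = 0.0099), and on 1450392_at (-2.42 ± 0.48, adjusted p = 0.0392). Scarb1, a lipoprotein receptor gene, fell on 1416050_a_at (-0.71 ± 0.09, adjusted p = 0.0158). On their brightest probe sets neither Abca1 (-0.16 ± 0.15, adjusted p = 0.516) nor Scarb1 (-0.22 ± 0.07, adjusted p = 0.132) was called. For fatty acid synthesis under SREBP 1 of 10 rose (median -0.09), the desaturase gene Fads2, with 9.75 and 9.87 log2 in the double mutant arrays and 9.46, 9.31 and 9.39 in the wild type arrays (0.42 ± 0.07, SE, adjusted p = 0.0298), although of its other probe sets 1 was called higher and 1 lower, and over the list's 17 other probe sets 2 were higher and 4 lower. Among 8 genes of the isoprenoid branches Pggt1b, which encodes a subunit of a protein prenyltransferase, rose by 0.55 ± 0.10 (adjusted p = 0.0354) and Dhdds, of dolichol synthesis, fell by 0.31 ± 0.06 (adjusted p = 0.0435), with a median of 0.02. Of the 13 other probe sets of that list 4 were lower and 0 higher, 1 of Dhdds and 3 of Nus1, a dolichol synthesis gene too, whose differences ran from -1.68 to -0.51. On its brightest probe set Nus1 was not called (-0.03 ± 0.08, adjusted p = 0.832). The calls of Fads2, Pggt1b and Dhdds on their brightest probe sets were lost with any array left out (adjusted p of 0.0638 to 0.145), Fads2 also with equal array medians (0.0831) and Dhdds with quantile normalization (0.0974).

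Hedgehog pathway genes, some of whose proteins bind or carry sterols, are given beside the enzymes, with no link between the lists tested. Of 15 measured, 3 rose and 1 fell (26.7% called, against 14.7% of all genes), with a median of -0.05. Among the 18 remaining probe sets 1 was called higher and 6 lower, against 8.7% and 9.52% of all probe sets. Gli1, a transcriptional readout of the pathway, had 7.98 and 7.71 log2 in the double mutant arrays and 6.56, 6.61 and 6.77 in the wild type arrays (1.20 ± 0.12, SE, adjusted p = 0.0098). Smo, the gene of the sterol-binding transducer Smoothened, was higher on 1427049_s_at (0.46 ± 0.09, adjusted p = 0.0348) and lower on 1427048_at (-0.62 ± 0.11, adjusted p = 0.0324).

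Ptch1, whose receptor product resembles sterol transporters, was higher on its brightest probe set (0.38 ± 0.07, adjusted p = 0.0296), with another probe set called higher and another lower (1.78 and -1.36). Shh, whose product carries the cholesterol, spread widely, with 7.38 and 9.06 in the double mutant arrays and 6.95, 6.47 and 5.75 in the wild type arrays (1.83 ± 0.65, adjusted p = 0.141). Scube2, which helps release the lipid-bearing ligand, was lower at dim levels (-0.61 ± 0.11, adjusted p = 0.0286), and Hhat, the palmitoyl transferase gene, differed by -0.06 ± 0.05 (adjusted p = 0.45) where it was brightest and fell on 1425636_at (-1.59 ± 0.21, adjusted p = 0.0168). Other probe sets also fell for Gli3 (1450525_at, -1.88 ± 0.34, adjusted p = 0.032), Disp1 (1435132_at, -1.49 ± 0.31, adjusted p = 0.0421) and the dim one of Gas1 (1456322_at, -0.49 ± 0.10, adjusted p = 0.0402). Where brightest, Gli3 (-0.25, adjusted p = 0.625), Disp1 (-0.18, adjusted p = 0.425) and Gas1 (0.06, adjusted p = 0.474) were not called. With equal array medians Smo and Ptch1 were not called on their brightest probe sets (adjusted p = 0.0971 and 0.138). With 1 array left out Gli1 was kept in 3 of 5 fits (adjusted p of 0.0269 to 0.0715), Ptch1 in 1 (0.0492 to 0.123), and Smo and Scube2 in 0 (0.0542 to 0.141 and 0.052 to 0.132).

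**Figure D4:**
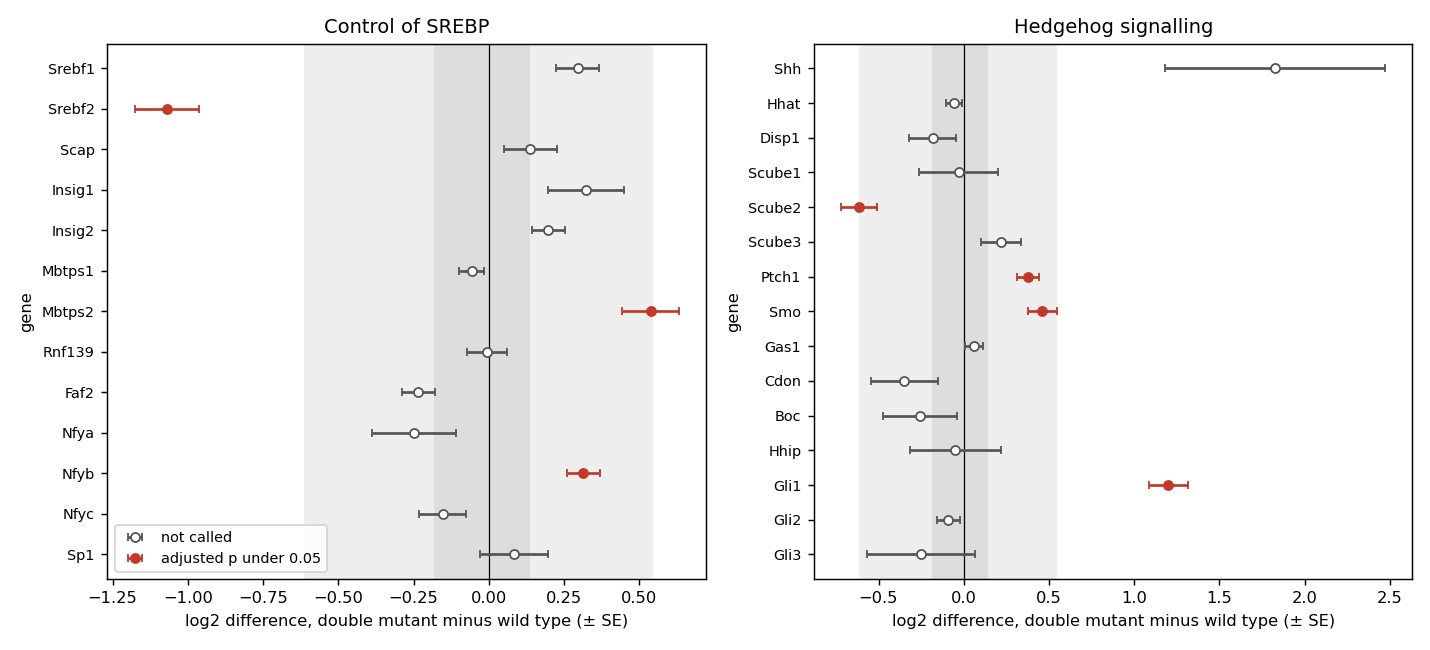
Log2 difference, double mutant minus wild type, with limma's SE (x axis) for genes that control SREBP (left, y axis) and for Hedgehog genes (right, y axis), each on its brightest probe set; filled red points passed an adjusted p under 0.05, and the bands span the 25th to 75th and the 5th to 95th percentiles of all genes. Srebf2 lies at -1.07 and Gli1 at 1.20, while Insig1 (0.32) and Shh (1.83, with the widest bar) were not called.

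The profiles over the arrays were set side by side last. Each gene's brightest probe set was centred on its own mean, and the mean of the 7 was -0.06 and 0.02 in the double mutant arrays and 0.07, 0.00 and -0.04 in the wild type arrays. The members' differences have both signs, so this mean shows nothing of a shared profile. The genes with the nearest centred profiles over the 5 arrays, among 11537 genes at or above the median level, were Mrps18b for Hmgcs1 (Euclidean distance 0.0469 log2, Pearson r = 0.998), Gtf2e1 for Fdft1 (0.0178, r = 0.997), Caprin1 for Sqle (0.0232, r = 0.993) and Mtrf1l for Lss (0.0507, r = 0.991). Ccdc117 was nearest to Sc5d (0.0696, r = 0.985), Lrwd1 to Dhcr7 (0.0332, r = 0.998) and Hace1 to Insig1 (0.0472, r = 0.996). With 5 arrays and this many candidates, such distances describe these arrays only.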

How the data were processed

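RNA from E11.5 forelimbs was placed in Qiazol, purified on columns and biotin-labelled with a kit that runs a pair of amplification cycles, per the labels' protocols. The authors deposited 1 intensity per probe set on each array, on a linear scale. RMA and limma are named, per the submitters' processing notes, and other settings are not given in the sources used here. No further normalization was applied, and log2 was taken. The 64 manufacturer controls among 45101 probe sets stayed out of the tests. The platform annotation gave 34945 probe sets 1 symbol, 932 several and 9160 none.

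The fit used limma 3.58.1 under R 4.3.3 (1 mean per genotype, empirical Bayes without trend, 3 residual and 1.29 prior degrees of freedom, two-sided), adjusted by Benjamini-Hochberg over 45037 probe sets, called under 0.05. P-values set the difference between genotypes against the spread of arrays within them, moderated over all probe sets. They do not separate genotype from preparation, and the number of arrays, 5, limits precision. Differences are double mutant minus wild type. One probe set per gene was the brightest on average. The fit was tested on simulated data. Some genes of the lists are not reported here. The members and lists were chosen with earlier results of these data known. All member probe sets were named, and from each pathway list the genes called on their brightest probe set plus a fixed set. Markers are given by counts. Genes named for calls on other probe sets were chosen after their values were seen. Alternatives were equal medians, quantile normalization, trended or robust moderation, a filter on dim probe sets, a pseudocount of 16, leaving arrays out, a replicate block, a Gapdh covariate, and other choices of probe set per gene.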

Additional observations from a re-analysis of the deposited data

How the results depend on the processing

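Trended or robust moderation and a pseudocount of 16 changed no call among the 18 probe sets, and over all alternatives 188 values of a probe set's difference kept direction and side of the threshold, 28 lost the call, 6 gained it and 8 reversed. All 8 reversals came with the 3' minus 5' Gapdh difference as a covariate, whose values do not overlap between genotypes: Hmgcs1 1433443_a_at 0.0474 and 1433446_at 0.15, Fdft1 1438322_x_at -0.0382 and 1438918_at 0.13, Lss 1426913_at -0.0815 and 1420014_at 0.50, Sc5d 1451457_at 0.87 and 1434520_at -0.11. That covariate left 0 calls in the whole table (4259 at an unadjusted p under 0.05) and so 0 in every count given here, with Dhcr7 at -0.20 (adjusted p = 0.784). The replicate numbers do not pair the samples by any label. Same-numbered deviations correlated at 0.09 and 0.12. The deviations of the 2 double mutant arrays mirror each other, so each correlation recurs with the opposite sign for the other array. These values, with 2 shared numbers, cannot judge a pairing. With the replicate block 2351 probe sets were called, 0 of the 18 higher and 1 lower (Sc5d 1424709_at), 0 genes by brightest probe set, and 0 other synthesis genes higher and 0 lower. With arrays left out in turn, calls ranged over 0 to 5108 for all probe sets, 0 to 1 higher and 0 to 3 lower for the 18, 0 to 1 lower for the 7 genes, and 0 to 1 higher and 0 to 2 lower for other synthesis genes. With equal array medians 1 of the 18 was higher and 5 lower, and 0 other synthesis genes were higher and 4 lower. With dim probe sets left out 14 of the 18 were tested, and 1 of these was higher. Hmgcs1 1441536_at, called higher in the main fit, was not among those tested. With probe sets ending in _x_at or _s_at left out 0 of the 7 genes were called higher and 1 lower. With the mean of all probe sets per gene 2 of the 7 genes were lower, Dhcr7 and Sc5d (-0.49 ± 0.05, SE, adjusted p = 0.0068), and 4 other synthesis genes. The cause of these shifts was not tested. Dim signal limits 4 of the 18 probe sets, whose means lay under 5.41. It also limits Sc5d 1424709_at, whose double mutant values, 4.59 and 4.60, lay under that level.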
